A study of Mus musculus with 2 samples.

Results

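Gustducin is the G protein of sweet, umami and bitter taste, and 5 genes that encode its subunits or the regulator paired with it were followed cell by cell in sorted mouse taste cells. The genes are Gnat3 (the α subunit, α-gustducin), Gnb3 and Gnb1 (β subunits), Gng13 (the γ subunit γ13) and Rgs21 (a regulator of G protein signalling). They were taken by name and all 5 were present in both count tables, among 21888 genes listed in either. Fungiform papillae (FP) of the anterior tongue gave 1 library, and the circumvallate papilla (CV), a single large papilla further back, gave the other. Both came from adult α-gustducin-GFP mice on a C57BL/6J background, in which green fluorescent protein reports α-gustducin, and from cells sorted for that fluorescence, so the sort read the reporter and not the Gnat3 transcript. There was no reporter-free group, and the number of animals behind each library is not known from the labels.

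A taste receptor that binds its ligand loads α-gustducin with GTP, and the βγ pair is then freed. The freed βγ dimer activates the phospholipase Plcb2, whose product opens the calcium channel Itpr3, and calcium opens the cation channel Trpm5. RGS proteins end the signal by speeding GTP hydrolysis on the α subunit, and Gng13 is the γ subunit best known from taste cells and olfactory neurons.

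The 29 FP and 61 CV barcodes differed widely in depth and quality. Cells with more than 500 detected genes and Gnat3 above 0.9 on ln(1 + counts per 10000), which corresponds to 146 CPM (counts scaled to the same total for every cell), are called kept below. There were 53, made up of 21 FP cells with 193718 to 3190340 counts (median 1141644) and 32 CV cells with 32726 to 3447628 counts (median 543963). Markers of type II (receptor) taste cells, 14 of 15 of them listed, summed to between 5723 and 29001 CPM in kept FP cells and between 269 and 35988 CPM in kept CV cells. That sum holds Gnat3, which chose the cells, and 3 other members; the 10 listed markers that are no members summed to between 1840 and 12562 CPM in kept FP cells and between 15.4 and 12559 CPM in kept CV cells. The 17 lingual keratinocyte markers summed to at most 1487 CPM in kept FP cells and 917 CPM in kept CV cells. The 8 FP barcodes not kept comprised 7 keratin-rich barcodes (58786 to 187049 CPM of those markers) and 1 barcode with Gnb3 and Gng13 but little Gnat3. The 29 CV barcodes not kept comprised 3 of that last kind and 26 others, whose median mitochondrial share was 92.9% of counts. The libraries shared 0 barcode numbers, but 6 CV barcodes formed a run of adjoining numbers, 5 of them kept and 5 with far fewer counts than the deepest (45673 counts in the shallowest, 1350869 in the deepest). With 1 library per papilla no replicate check existed and no test between papillae was made. All intervals are 95% intervals. Those of pooled levels and their ratios cover counting error only. Those of shares and medians treat the cells of 1 library as independent draws. None covers differences between animals or libraries.

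The nearest barcodes on each side of the Gnat3 limit were sparse. Just outside were an FP barcode at 67.4 CPM (17 Gnat3 counts) and a CV barcode at 62.6 CPM (8 counts). Just inside were CV cells at 173 CPM (29 counts) and 304 CPM (13 counts).

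The members sit on separate chromosomes of mm10, with positions from GENCODE M21. Gnat3 lies on chromosome 5 (17962549 to 18019834, plus strand), Gnb3 on chromosome 6 (124834240 to 124840275, minus strand) and Gng13 on chromosome 17 (25717171 to 25719406, plus strand). Gnb1 lies on chromosome 4 (155491361 to 155559269, plus strand) and Rgs21 on chromosome 1 (144516648 to 144567667, minus strand). RefSeq promoter entries (GRCm38.p6, the assembly of mm10) were matched for 4 of the 5, and the bases that precede each gene's start are shown because they set genes with a narrow reported tissue range beside the broadly expressed Gnb1. Capitals mark ATGCAAA, the core of the octamer ATGCAAAT that POU-domain proteins are known to bind, on either strand. Pou2f3, a POU-domain protein, is needed for type II taste cells.
Gnat3, chr5:17962320-17962548, plus strand: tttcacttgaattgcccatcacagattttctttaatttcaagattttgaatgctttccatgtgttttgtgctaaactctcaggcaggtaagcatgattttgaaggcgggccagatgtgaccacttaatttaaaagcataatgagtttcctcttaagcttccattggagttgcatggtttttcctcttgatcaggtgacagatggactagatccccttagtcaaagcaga
Gng13, chr17:25716922-25717170, plus strand: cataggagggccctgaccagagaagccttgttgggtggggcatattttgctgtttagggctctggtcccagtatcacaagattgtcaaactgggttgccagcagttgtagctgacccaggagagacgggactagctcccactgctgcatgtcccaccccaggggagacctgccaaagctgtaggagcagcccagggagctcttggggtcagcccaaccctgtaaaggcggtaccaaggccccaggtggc
Gnb1, chr4:155491111-155491360, plus strand: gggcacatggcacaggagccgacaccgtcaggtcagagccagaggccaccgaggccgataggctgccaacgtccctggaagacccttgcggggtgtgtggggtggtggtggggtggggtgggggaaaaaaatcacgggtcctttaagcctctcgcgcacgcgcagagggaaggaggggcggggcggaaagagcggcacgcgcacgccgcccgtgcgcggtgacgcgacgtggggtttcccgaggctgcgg
Rgs21, chr1:144567668-144567917, minus strand: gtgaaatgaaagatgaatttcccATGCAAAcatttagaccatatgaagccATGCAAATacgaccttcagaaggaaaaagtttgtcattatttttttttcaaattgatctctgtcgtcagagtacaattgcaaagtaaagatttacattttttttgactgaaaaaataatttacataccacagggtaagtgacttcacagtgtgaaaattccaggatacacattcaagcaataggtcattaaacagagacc

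The promoter of Rgs21 held 2 copies of ATGCAAA, beginning 227 and 200 bases before the start, and the second is part of a full octamer. These windows of Gnat3, Gng13 and Gnb1 held 0. Among 32851 promoter windows of 250 bases, 4.12% held ATGCAAA on either strand, 0.247% held it at least 2 times, and 1.60% held the octamer ATGCAAAT, which contains it. Base composition differed as well, with 32.8% G or C for Rgs21, 39.3% for Gnat3, 59.0% for Gng13 and 69.2% for Gnb1, beside a median of 52.4% over all windows. The motif was chosen after the sequences had been seen, and a match is a description of the letters only.

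Gnat3, the α subunit, was high in most kept cells of both papillae, although the limit on Gnat3 had chosen these cells. Per kept cell its lowest, median and highest levels were 377, 5320 and 8800 CPM in FP, against 173, 4120 and 16848 CPM in CV. The ranges overlapped throughout, and CV cells held both the lowest and the highest value. The highest CV cell was a barcode of 62797 counts from the adjoining run. Pooled over kept cells, Gnat3 stood at 5223 CPM in FP (interval 5194 to 5253) and 4372 CPM in CV (4348 to 4396), a ratio of 1.19 (1.19 to 1.20). In the 7 keratin-rich FP barcodes Gnat3 was at 3.26 to 14.3 CPM, and the pooled 9.57 CPM was 0.183% of the level in kept FP cells.

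Gnb3, the β subunit reported to pair with Gng13 in taste cells, followed at a like abundance. Its lowest, median and highest levels were 540, 6077 and 11226 CPM in kept FP cells, against 0, 4648 and 26242 CPM in kept CV cells. Its pooled level was 6518 CPM in FP (6485 to 6551) and 5164 CPM in CV (5138 to 5190), a ratio of 1.26 (1.25 to 1.27). A gene was scored as on in a cell at 50 CPM or more, which every kept FP cell reached for Gnb3, as did 29 of 32 kept CV cells (90.6%, exact Clopper-Pearson interval 75.0 to 98.0%). None of the 7 keratin-rich barcodes did (0%, upper bound 41.0%), although all 7 held at least 1 Gnb3 count, so single counts were not read as expression.

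Gng13, the γ subunit, had a tight upper edge. Its lowest, median and highest levels were 28.4, 3031 and 5009 CPM in kept FP cells, against 15.9, 3011 and 5452 CPM in kept CV cells. Its pooled level was 3334 CPM in FP (3311 to 3358) and 3561 CPM in CV (3539 to 3582), a ratio of 0.937 (0.928 to 0.945). It was on in 20 of 21 kept FP cells (95.2%, 76.2 to 99.9%) and 27 of 32 kept CV cells (84.4%, 67.2 to 94.7%). All 13 FP cells and all 14 CV cells with at least 1000000 counts were on for both Gnb3 and Gng13.

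Gnb1, a β subunit used by many cell types, was patchy and far lower. Its lowest, median and highest levels were 0, 225 and 1374 CPM in kept FP cells, against 0, 38.8 and 4196 CPM in kept CV cells. The highest CV cell belonged to the adjoining run and had 98657 counts. The pooled level was 435 CPM in FP (426 to 443) and 365 CPM in CV (358 to 372), a ratio of 1.19 (1.16 to 1.22). Gnb1 was also found outside the kept cells. The keratin-rich FP barcodes stood at 160 CPM, 36.9% of the level in kept FP cells, with 4 of 7 on. The same percentage was 0.300% for Gnb3, 0.405% for Gng13 and 0.208% for Rgs21.

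Rgs21, the regulator, was the lowest member. Its lowest, median and highest levels were 0, 129 and 803 CPM in kept FP cells, against 0, 15.1 and 1659 CPM in kept CV cells. Its pooled level was 202 CPM in FP (196 to 207) and 166 CPM in CV (161 to 170), a ratio of 1.22 (1.17 to 1.27). In the 7 keratin-rich barcodes the pooled level was 0.420 CPM and 0 of 7 were on.

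**Figure D1:**
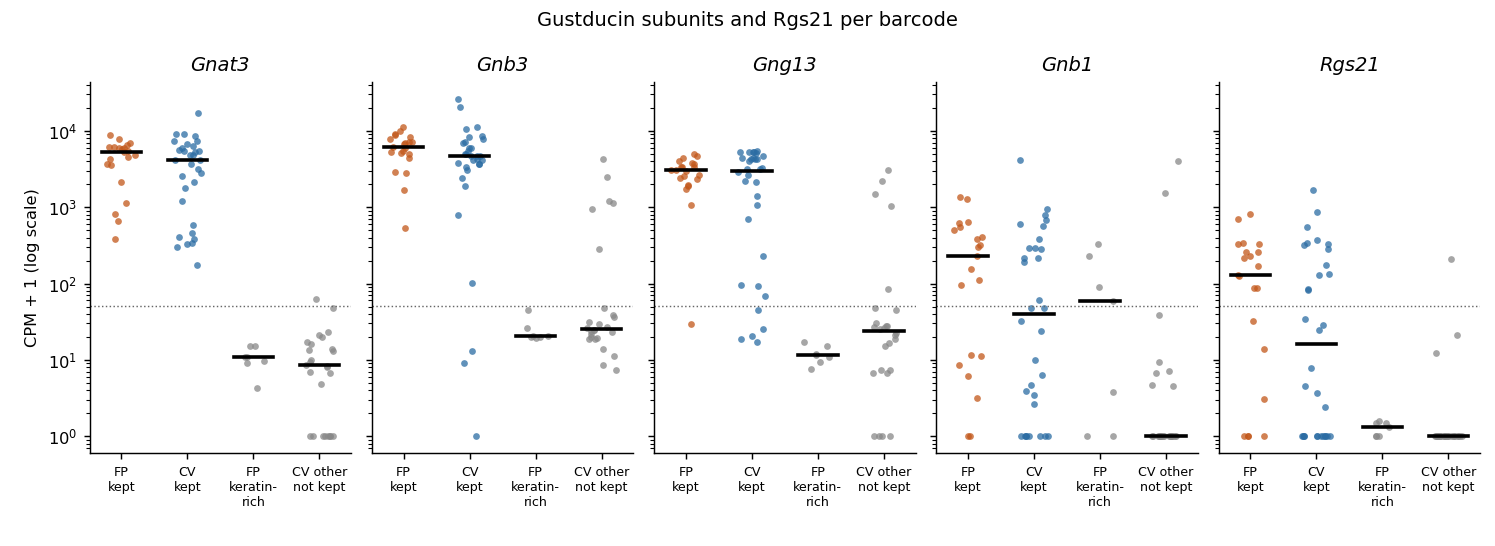
Level of each member per barcode in CPM plus 1 on a log axis, for kept cells (21 FP, 32 CV), the 7 keratin-rich FP barcodes and the 26 other CV barcodes not kept. Black bars are medians, the dotted line is 50 CPM, and the 4 barcodes with Gnb3 and Gng13 but little Gnat3 are not drawn. Gnat3, Gnb3 and Gng13 are high in most kept cells and have medians of 7.46 to 24.3 CPM in the barcodes not kept that are drawn, and Gnb1 and Rgs21 spread down to 0 in kept cells.

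Compared per kilobase of merged exon, Gng13 was highest at 4314 CPM per kb in FP and 4606 CPM per kb in CV, followed by Gnat3 at 3838 and 3213 CPM per kb and Gnb3 at 2476 and 1962 CPM per kb. Gnb1 (102 CPM per kb in FP and 85.5 in CV) and Rgs21 (51.1 in FP and 42.0 in CV) were far below these. Neighbours in this order overlapped in single cells. How far these counts scale with transcript length is not stated, so the order holds on this scale only.

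None of the 5 members differed 2-fold between papillae. On the log2(CPM + 10) scale the FP over CV differences were 0.26 for Gnat3, 0.34 for Gnb3, −0.09 for Gng13, 0.25 for Gnb1 and 0.27 for Rgs21. Of the 10918 genes that reached 10 CPM in FP or CV, 38.0% lay at least 2-fold apart, 17.0% of them higher in FP and 21.0% higher in CV, each as a share of all genes tested. The median absolute log2 difference over those genes was 0.76, and 23.5% of them had a smaller one than Gnb3, the largest of the members. Among kept cells the sign was not stable for 2 members. Gng13 averaged over cells, instead of pooled, gave 0.13, and Gnb1 after thinning every cell to 71770 counts gave −0.33. With no limit on Gnat3 the pooled difference was −0.035 for Gnat3, −0.054 for Gnb3, −0.60 for Gng13, 0.11 for Gnb1 and −0.51 for Rgs21. The keratin-rich barcodes add 11918186 counts to FP there, and CV barcode 44480, described below, holds 2195 of the 7118 Rgs21 counts of all CV barcodes. With that barcode left out as well, a choice made after seeing the data, the difference was −0.16 for Rgs21, −0.56 for Gng13 and −0.20 for Gnat3.

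The patchiness of Gnb1 and Rgs21 moved with depth. Gnb1 was on in 14 of 21 kept FP cells (66.7%, 43.0 to 85.4%) and 14 of 32 kept CV cells (43.8%, 26.4 to 62.3%). Among cells with at least 1000000 counts 13 of 13 from FP and 10 of 14 from CV were on. Among shallower cells 1 of 8 from FP and 4 of 18 from CV were on. Thinned to 71770 counts, with 6 CV cells too shallow and left out, at least 1 Gnb1 count was found in 15 of 21 cells from FP and 19 of 26 from CV. The same cells before thinning held at least 1 Gnb1 count in 19 of 21 from FP and 23 of 26 from CV. Over the 53 kept cells the Spearman correlation with the cell's total count was 0.64 for Gnb1, 0.42 for Rgs21 and 0.37 for Gng13. It was 0.10 for Gnat3 and −0.05 for Gnb3 (a description over cells that share 2 libraries). In the 27 deep cells it was 0.30 for Gnb1, 0.10 for Rgs21, 0.22 for Gng13, 0.12 for Gnat3 and −0.22 for Gnb3.

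Rgs21 was on in 14 of 21 kept FP cells (66.7%, 43.0 to 85.4%) and 13 of 32 kept CV cells (40.6%, 23.7 to 59.4%). It was on in 10 of 13 deep FP cells and 9 of 14 deep CV cells, and in 4 of 8 and 4 of 18 of the shallower ones. Unlike Gnb1, it was off in some deep FP cells, while in CV both genes were off in some deep cells. One FP cell with more than 1000000 counts held 0 Rgs21 counts, while each of the 14 deep CV cells held at least 4. After thinning, 16 of 21 cells from FP and 14 of 26 from CV held at least 1 Rgs21 count. Before thinning 17 of 21 and 18 of 26 of the same cells did.

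**Figure D2:**
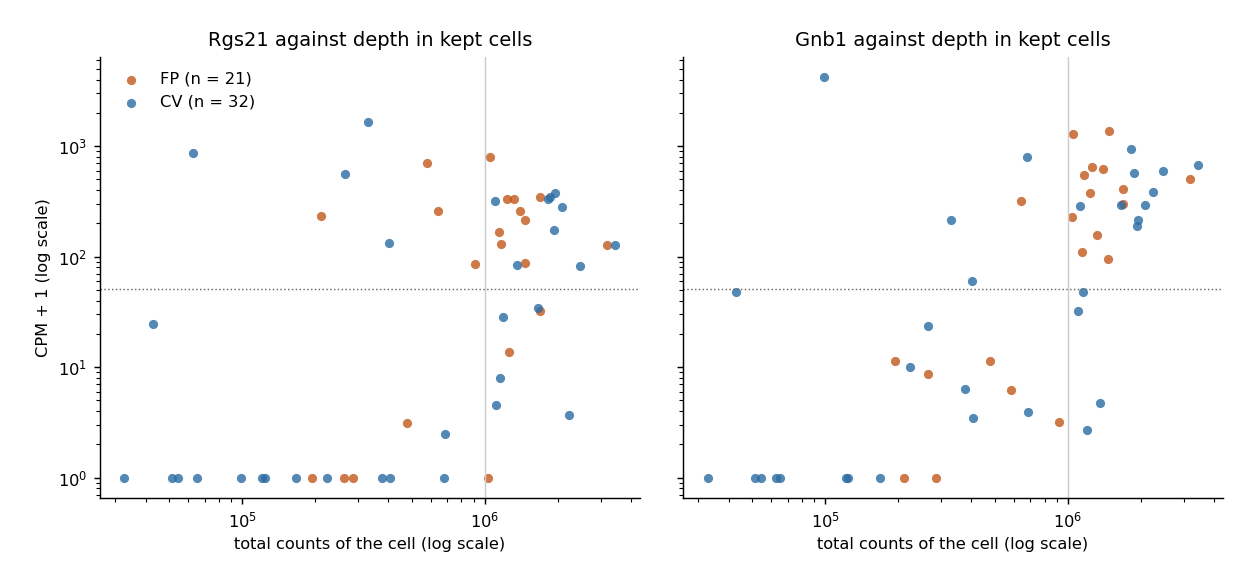
Rgs21 (left) and Gnb1 (right) in CPM plus 1 against the total counts of each kept cell, both axes log, for 21 FP and 32 CV cells. The dotted line is 50 CPM and the vertical line 1000000 counts. Gnb1 is above the dotted line in 13 of 13 deep FP cells and 10 of 14 deep CV cells, and Rgs21 is below it in 3 deep FP cells and 5 deep CV cells.

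Rgs21 was then compared between cells on and off for Tas1r3, the subunit shared by the sweet and umami receptors. In FP, 7 of 8 cells on for Tas1r3 were on for Rgs21 (median 236 CPM), and 7 of 13 cells off for it (median 85.3 CPM). In CV the numbers were 4 of 7 (median 127 CPM) and 9 of 25 (median 6.92 CPM). Cells on for Tas1r3 were deeper, with median totals of 1271621 counts on and 914630 off in FP, and 1100195 on and 401621 off in CV. The part of depth in this difference was not tested. Rgs21 was also on in 12 of 28 CV cells and 9 of 13 FP cells that were on for at least 1 bitter receptor gene (Tas2r). The receptor sets overlapped, since all 7 CV cells and 4 of 8 FP cells on for Tas1r3 were also on for a Tas2r. Of the 4 FP cells on for Tas1r3 alone 3 were on for Rgs21, as were 5 of 9 FP and 8 of 21 CV cells on for a Tas2r alone. No kept CV cell was on for Tas1r3 alone, so the classes could not be set apart there.

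Gnat3 was above 50 CPM in every kept cell by the way the cells were chosen, so counts of combinations rest on the other members. Gnat3, Gnb3 and Gng13 were all on in 20 of 21 kept FP cells and 27 of 32 kept CV cells, and all 5 members in 11 FP cells and 9 CV cells. Among kept cells Gnb1 was on without Gnb3 in 0 of 32 from CV, and in FP, where Gnb3 was on in every kept cell, this could not occur. Gnb3 was on without Gnb1 in 7 kept FP cells and 15 kept CV cells. Gng13 was on without Gnb3 in 0 of 32 kept CV cells, and in FP this again could not occur. Only 3 kept CV cells were off for Gnb3, with at most 3 Gng13 counts and 0 Gnb1 counts each. The 0 for Gnb1 and the 0 for Gng13 in CV therefore rest on these 3 sparse cells and on the level of 50 CPM. Kept CV barcode 171033, of the adjoining run, was just above that level for Gnb3, with 10 counts (101 CPM). It held 414 Gnb1 counts (4196 CPM) and 215 Gng13 counts (2179 CPM). Outside the kept cells 4 of 7 keratin-rich FP barcodes and 1 of 29 CV barcodes were on for Gnb1 without Gnb3, and 3 of 29 CV barcodes were on for Gng13 without Gnb3.

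The ratio of Gnb3 to Gnat3 counts varied less among deep kept cells than among shallower ones. Kept cells had been chosen for Gnat3, the denominator, so deep barcodes low in Gnat3 were already left out. The median log2 ratio per cell was 0.25 in FP (interval −0.14 to 0.65) and 0.29 in CV (−0.37 to 1.06). Its SD over cells was 1.05 in FP and 2.36 in CV. In the 13 FP cells with at least 1000000 counts the SD was 0.42 and all 13 lay within 2-fold of their median. In the 14 deep CV cells the SD was 1.08 and 13 of 14 did, the exception being barcode 222720, described below with its values. With CV barcode 44480 added, which was not kept and had 10581 Gnb3 counts, 173 times its Gnat3 counts, the SD over 15 deep CV barcodes was 2.11. In the shallower cells the SD was 1.46 over 8 FP cells and 3.03 over 18 CV cells.

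Gng13 to Gnat3 had a median log2 ratio of −0.62 in FP (SD 1.45) and −0.68 in CV (SD 2.37), with SDs of 0.91 and 1.03 in the deep cells of FP and CV. Gng13 to Gnb3, the βγ pair, had an SD of 0.93 in deep FP cells and 0.65 in deep CV cells. Gnb1 to Gnat3 had a median of −4.09 in FP (SD 2.58) and −5.01 in CV (SD 2.97), and still an SD of 1.02 and 2.73 in deep FP and CV cells. Rgs21 to Gnat3 had a median of −5.61 in FP (SD 2.91) and −5.95 in CV (SD 2.71). Counts are not per length, so these ratios compare cells and do not rank the genes.

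**Figure D3:**
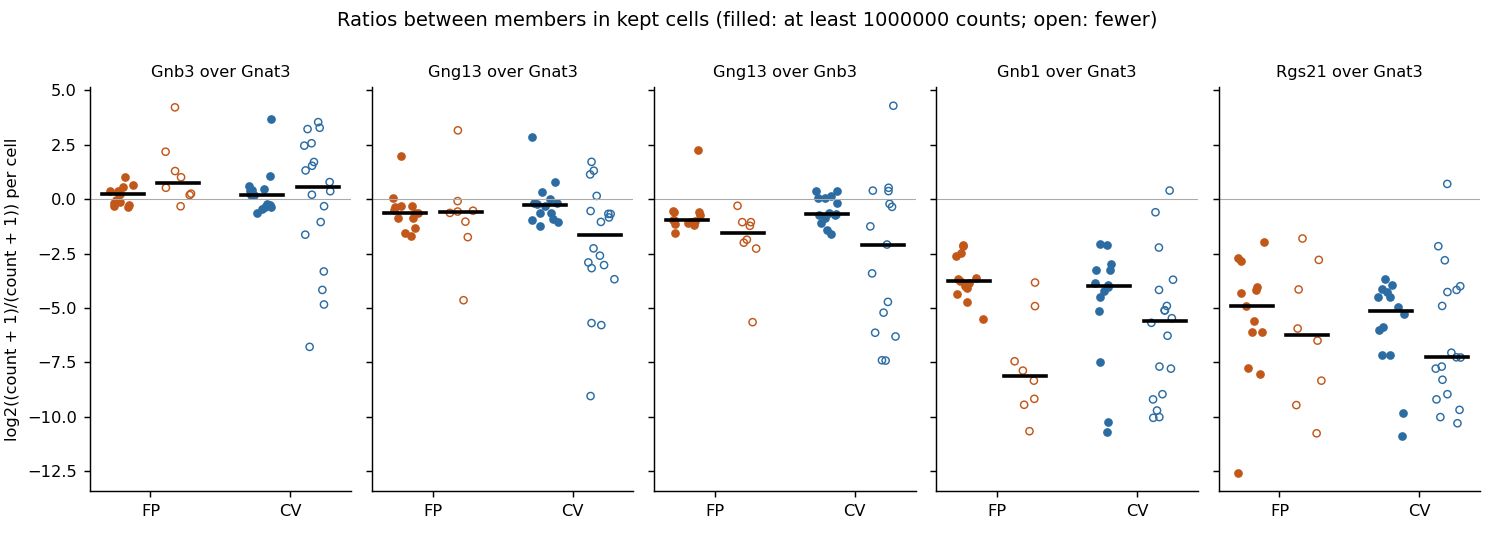
log2 ratio of counts plus 1 between members in each kept cell, FP left of CV in each panel, with deep cells (at least 1000000 counts) filled and shallower cells open. Black bars are medians. In deep cells of FP and CV the SD is 0.42 and 1.08 for Gnb3 over Gnat3, and 0.91 and 1.03 for Gng13 over Gnat3. It is 0.93 and 0.65 for Gng13 over Gnb3, while Rgs21 over Gnat3 spreads over many doublings. CV barcode 44480, deep but not kept, is not drawn, and with it the CV value for Gnb3 over Gnat3 is 2.11.

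The spread of the subunit ratios was set beside that of other abundant genes. For each of 2407 genes with at least 50 CPM and found in at least 50% of kept cells, the SD over cells of the log2 ratio to Gnat3 was taken. In the 27 deep cells Gnb3 had the second lowest SD (0.82, rank 2 of 2407), after the histone gene H3f3a (0.78), and Gng13 ranked 13 (0.97). The median gene had 3.17. These cells had been chosen for Gnat3, the denominator, so CV barcode 44480, deep but low in Gnat3, was left out of the ranking. With that barcode added, the SD of Gnb3 over Gnat3 in deep CV barcodes rose from 1.08 to 2.11. No rank was recomputed with it, so the ranks hold for cells kept by the Gnat3 limit only. Downstream, Trpm5 ranked 58 (1.22), Itpr3 ranked 83 (1.30) and Plcb2 ranked 123 (1.40), while Gnb1 ranked 381 (2.15) and Rgs21 505 (2.48). Over all 53 kept cells Gnb3 ranked 13 and Gng13 25, and relative to Gnb3 Gnat3 had the lowest SD (1.94). In the deep cells Gnat3 ranked 6 relative to Gnb3 (0.82), after Prom2, Rpl11, Gng13 (rank 3, SD 0.79), Rps24 and Espn. Ribosomal protein genes, which are abundant in most cells, came next to Gnb3 in deep cells, with Rpl23 at 0.83 and Rpl41 at 0.85, and the part of abundance in the ranking was not tested.

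A ratio of Gnb3 to Gnat3 more than 2-fold from the median of its library was seen in 3 of 21 kept FP cells and 15 of 32 kept CV cells. All 3 FP cells lay above the median, and of the CV cells 9 lay above and 6 below. Of these cells 3 of 3 from FP and 14 of 15 from CV had under 1000000 counts. They took several forms, including low Gnat3 beside high Gnb3 and Gng13, low Gnat3 beside little Gng13, high Gnat3 beside still higher Gnb3, and little Gnb3. One kept CV cell of 1155577 counts (barcode 222720) had 460 CPM of Gnat3, 5943 CPM of Gnb3 and 3288 CPM of Gng13, and its Gnb3 count was 12.9 times its Gnat3 count. An FP cell of 477338 counts (barcode 551304) had 377 CPM of Gnat3, 7068 CPM of Gnb3 and 3398 CPM of Gng13. Its Gnb3 count was 18.7 times its Gnat3 count. CV barcode 532431 had 378 CPM of Gnat3, 3701 CPM of Gnb3 and 44.2 CPM of Gng13. CV barcode 673496 had 9039 CPM of Gnat3 and 26242 CPM of Gnb3. CV barcode 217785 had 1768 CPM of Gnat3 and 8.03 CPM of Gnb3. Within 2-fold of the median, FP barcode 63443 was low in both, with 660 CPM of Gnat3, 540 CPM of Gnb3 and 2582 CPM of Gng13. It had 1141644 counts and also carried the umami receptor subunit Tas1r1 at 5415 CPM.

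Kept cells that lacked a partner were shallow or rich in mitochondrial counts. A partner at or below the limit used for Gnat3 was seen in 1 kept FP cell (Gng13) and 9 kept CV cells (both in 3, Gnb3 in 1, Gng13 in 5). Their totals ran from 32726 to 407215 counts, and each had either at most 98657 counts or at least 41.0% mitochondrial counts. The FP cell (barcode 146804) had 68.0% mitochondrial counts, 822 CPM of Gnat3, 1659 CPM of Gnb3 and 6 Gng13 counts. In CV, barcode 171027 of the adjoining run had the highest Gnat3 of all cells and 1 Gng13 count.

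Barcodes with both partners but little Gnat3 numbered 4, which were 1 of 29 FP and 3 of 61 CV barcodes. FP barcode 275231 (252069 counts, 66.0% mitochondrial) had 17 Gnat3 counts (67.4 CPM), 2130 CPM of Gnb3, 202 CPM of Gng13 and 1412 CPM of Gnb1. It also held Plcb2 at 3555 CPM, Itpr3 at 274 CPM and Gnas, the stimulatory α subunit, at 2095 CPM, with 5 bitter receptor genes on. CV barcode 197665 (46257 counts) had 0 Gnat3 counts beside 237 Gnb3, 59 Gng13 and 150 Gnb1 counts, with Trpm5 at 3027 CPM and 5 bitter receptor genes on. CV barcode 171035, the shallowest of the adjoining run, had 2 Gnat3, 25 Gnb3 and 77 Gng13 counts, with Trpm5 at 8320 CPM and Plcb2 at 1730 CPM. Each of these 3 was shallow or rich in mitochondrial counts. Without the 5 shallower barcodes of the adjoining run, 3 of the 4 remained.

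CV barcode 44480 was different, as it was deep and carried sweet receptor subunits with another α subunit. It had 4088415 counts, the highest total of all 90 barcodes, and 9949 genes, with 14.6% mitochondrial counts. Gnat3 had 61 counts (14.9 CPM), beside the 3.26 to 14.3 CPM of the keratin-rich FP barcodes, while Gnb3 was at 2588 CPM and Gng13 at 3917 CPM. Gna14, an α subunit of the Gq family, was at 1758 CPM, against 13.6 CPM pooled over kept CV cells, of which 3 of 32 were on. Gnaq, of the same family, was at 1946 CPM, against 52.8 CPM in kept CV cells. The sweet receptor subunits Tas1r2 and Tas1r3 were at 2211 and 632 CPM, Rgs21 at 537 CPM and Gnb1 at 102 CPM. The umami receptor subunit Tas1r1 was at 168 CPM, against 73.9 CPM pooled over kept CV cells. A bitter receptor gene, Tas2r126, was on at 54.8 CPM. Plcb2 (2005 CPM), Trpm5 (1369 CPM), Itpr3 (334 CPM) and Pou2f3 (370 CPM) were all present, and Gnai2 (1183 CPM) was close to its pooled level in kept CV cells (1397 CPM). It is 1 barcode of 1 library, doublets were not called, and whether it holds more than 1 cell was not tested. In the 3 CV barcodes with partners but little Gnat3, type III taste cell markers summed to at most 65.7 CPM and lingual keratinocyte markers to at most 239 CPM. Only 6 of the 11 type III markers were listed, so that sum is incomplete.

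**Figure D4:**
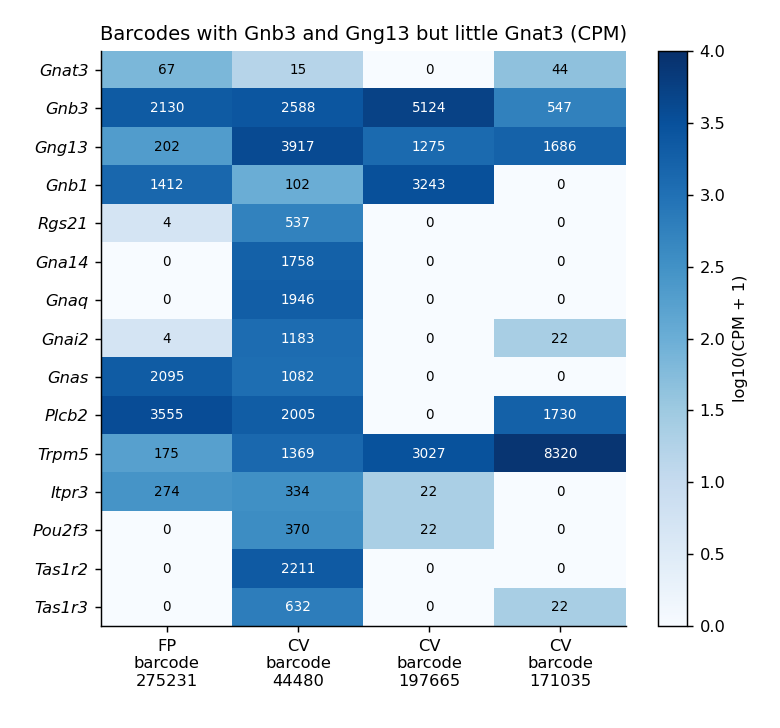
Levels in CPM, printed in each field and shaded by log10(CPM + 1), of members, other α subunits, effectors and receptor subunits in the 4 barcodes with Gnb3 and Gng13 but little Gnat3. CV barcode 44480 is the only one of the 4 with Gna14 (1758 CPM), Gnaq and Tas1r2 (2211 CPM).

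A further 9 CV barcodes held 1 partner above the limit, or both with at most 500 genes. Gnb3 alone was seen in 5, Gng13 alone in 3 and both in 1. They had 49717 to 168001 counts, 5.65 to 95.8% mitochondrial counts and at most 3 Gnat3 counts. No FP barcode was of this kind.

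**Figure D5:**
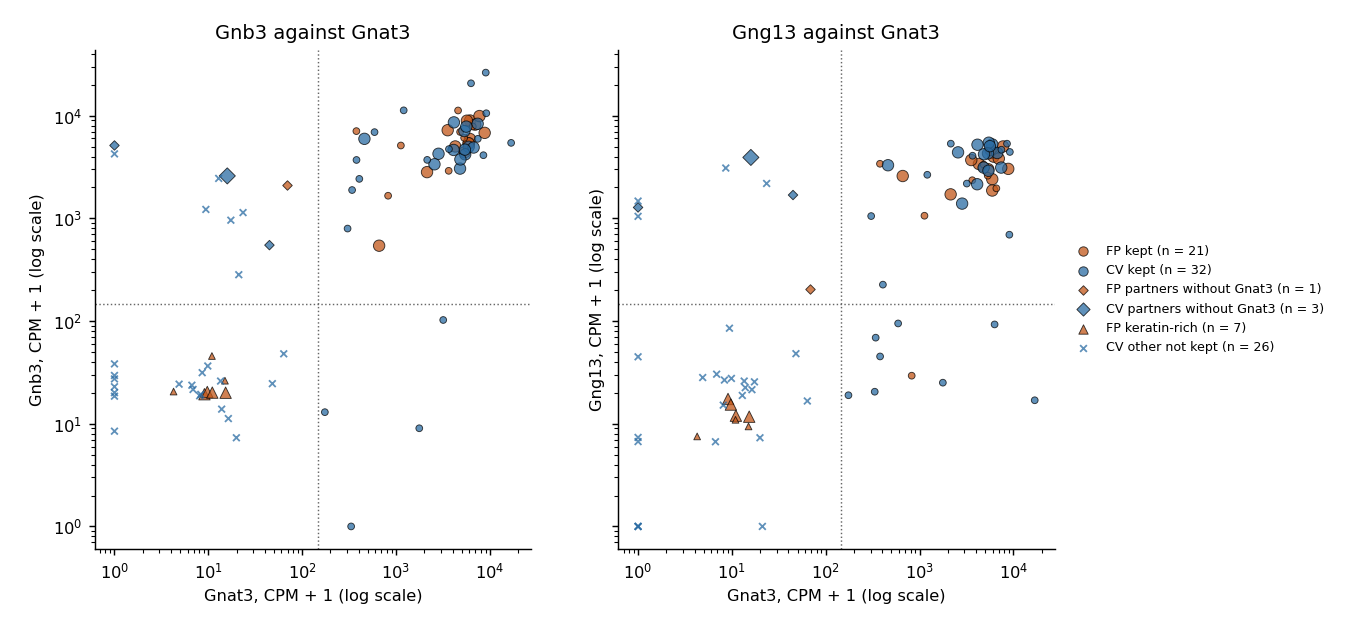
Gnb3 (left) and Gng13 (right) against Gnat3 per barcode, in CPM plus 1 on log axes, for all 29 FP and 61 CV barcodes. Large symbols have at least 1000000 counts and dotted lines are the limit of 146 CPM. Most kept cells lie in the upper right, the 7 keratin-rich FP barcodes in the lower left, and the diamonds are the 4 barcodes with partners but little Gnat3.

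Over cells, Gnat3 and Gnb3 were weakly correlated, and the rank of Gng13 beside them depended on which gene was ranked against. Levels were taken as ln(1 + counts per 10000) with mitochondrial and ribosomal RNA left out of the total, and the correlations share depth and library. Spearman's rho between Gnat3 and Gnb3 was 0.37 over the 53 kept cells, 0.26 in FP, 0.38 in CV and 0.50 in the 27 deep cells. Gnb3 ranked 11 of 2407 genes for likeness to Gnat3, and Gnat3 ranked 9 for Gnb3. Between Gnb3 and Gng13 rho was 0.20, with 0.50 in FP, 0.18 in CV and 0.41 in the deep cells. Between Gnat3 and Gng13 it was 0.24, with 0.25 in FP, 0.28 in CV and 0.23 in the deep cells. For likeness to Gng13, Gnat3 ranked 1339 and Gnb3 1591 of 2407, both below the median gene. In the other direction Gng13 ranked 139 of 2407 for likeness to Gnat3 and 155 for likeness to Gnb3.

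The genes most like Gnat3 were H3f3a (0.64), a histone variant gene, Prnp (0.52), the prion protein gene, Calm2 (0.50), a calmodulin gene, H3f3c (0.43) and Rab10 (0.41). H3f3a and H3f3c are near-identical copies that may share reads. Those most like Gnb3 were Podxl2 (0.49), Prnp (0.42), Adgrl3 (0.41), Cebpg (0.41) and Tcta (0.38). The median rho over all 2407 genes was 0.04 for Gnat3 and 0.00 for Gnb3. Gng13 was most like Terf2 (0.66), Ndufs5 (0.65), Gcnt2 (0.64), Ndufa3 (0.64) and the actin-bundling gene Espn (0.62). Gnb1 was most like Uqcc2 (0.72), Ube2k (0.71), Atp5g1 (0.70), Ctnnb1 (0.68) and Top2b (0.67). Rgs21 was most like Nek7 (0.61), Anxa6 (0.60), Spop (0.59), Fkbp3 (0.58) and Ywhaq (0.56). The median rho of all genes was 0.26 with Gng13, 0.37 with Gnb1 and 0.23 with Rgs21, so the highest values for these 3 members stood on a higher general level.

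Other G protein genes and their regulators formed a list of 75, of which 50 passed 10 CPM in either library. Past 2-fold, 12 of the 50 were higher in FP and 12 in CV, beside the 17.0% and 21.0% of all genes given above, and the median log2 difference was 0.15 against −0.05 over all genes. Of these 24 genes 16 were under 10 CPM in the other library, and so passed through the library where they were high, as were 2548 of the 4151 genes past 2-fold among all genes. The counts are therefore partly set by the filter. Of 11 tested α subunits 2 were higher in FP, 2 higher in CV and 7 within 2-fold. Gnai2, an inhibitory α subunit, was the highest of them, in counts not scaled to length, at 1294 CPM in FP, against 1397 CPM in CV, and Gnas stood at 511 CPM in FP, against 342 CPM in CV. Gnai1 was at 33.7 CPM in FP, where 3 cells were on, and 0.0677 CPM in CV.

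The other β subunit above 50 CPM was Gnb2, at 474 CPM in FP, against 695 CPM in CV. Gng5 (82.4 CPM in FP, against 156 CPM in CV) and Gng12 (87.1 CPM in FP, against 157 CPM in CV) were the other γ subunits above 50 CPM. Gng2 had 0 counts in kept cells of both libraries.

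Other RGS genes were mostly low. Of 14 tested genes 5 were higher in FP, 6 higher in CV and 3 within 2-fold. Over all genes tested 17.0% were higher in FP and 21.0% higher in CV. However, 8 of the 11 past 2-fold were under 10 CPM in the library where they were lower, as were 2548 of 4151 among all genes. Rgs16 was at 122 CPM in FP (9 of 21 cells on), against 4.91 CPM in CV (0 of 32 on), and Rgs3 at 53.1 CPM in FP, against 14.3 CPM in CV. In the other direction, Rgs13 was at 22.2 CPM in FP (2 cells on), against 538 CPM in CV (9 cells on), and Rgs2, a regulator that acts on Gq, at 72.6 CPM in FP, against 294 CPM in CV. Rgs9, known from the phototransduction cascade, stood at 328 CPM in FP, against 226 CPM in CV (12 of 21 and 16 of 32 cells on).

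Among 16 tested genes of assembly, lipid attachment and turnover, 3 were higher in FP, 3 higher in CV and 10 within 2-fold. The shares over all genes tested were 17.0% higher in FP and 21.0% higher in CV. Ric8b, an exchange factor and chaperone of α subunits, was at 40.8 CPM in FP, against 139 CPM in CV. Rce1, a protease of prenylated proteins, was at 105 CPM in FP, against 11.1 CPM in CV. Pggt1b, a subunit of the enzyme that attaches geranylgeranyl groups, was at 80.6 CPM in FP, against 17.1 CPM in CV. Gpsm3 had 0 counts in kept FP cells, against 86.9 CPM in CV (5 cells on). Of 4 tested PDZ proteins reported to bind Gng13, Gopc was at 73.9 CPM in FP, against 16.3 CPM in CV, and Dlg1, within 2-fold, at 71.4 and 38.2 CPM in FP and CV. These low genes rest on few cells each.

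Of 8 tested genes upstream and downstream of gustducin 1 was higher in FP, 1 higher in CV and 6 within 2-fold. All genes tested had shares of 17.0% higher in FP and 21.0% higher in CV. Tas1r1 was at 614 CPM in FP (3 cells on), against 73.9 CPM in CV (8 cells on). Calhm1, a subunit of the channel that releases ATP from type II cells, was at 0.309 CPM in FP (0 cells on), against 12.0 CPM in CV (1 cell on). The effectors were within 2-fold. Plcb2 was at 2930 CPM in FP, against 2129 CPM in CV. Trpm5 was at 1952 CPM in FP, against 1783 CPM in CV, and Itpr3 at 651 CPM in FP, against 614 CPM in CV.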

How the data were processed

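Per the labels' protocols and the series design, GFP-positive cells were caught with BD Rhapsody beads, TAS-Seq was used for amplification, and sequencing was on a NovaSeq. Each deposited table gives raw counts, all whole numbers, with 1 column for each cell barcode. The submitters' processing notes name cutadapt 2.10, Bowtie2 2.3.4.1, Seurat 2.3.4 and build mm10. Whether molecular barcodes were collapsed is not given in the sources used here. Hashtag libraries were not analysed here. Columns of samples not in the labels numbered 0.

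The members and gene lists were chosen with earlier results of these data known. The stated Gnat3 limit was read as ln(1 + counts per 10000) above 0.9. No mitochondrial limit was applied in kept cells, and doublets were not called. The limit for keratin-rich barcodes (10000 CPM of 17 markers), the level of 50 CPM for a gene that is on and the division at 1000000 counts were chosen after the data were seen. A gene absent from one table was taken as 0 there.

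CPM were computed here from the deposited counts. Levels pool kept cells per library, with exact Poisson intervals, exact conditional binomial intervals for ratios and exact Clopper-Pearson intervals for shares. Medians carry order-statistic intervals. Ratios between members use counts plus 1 in cells with at least 10 counts of either gene. Copies made by PCR may be counted, so the intervals can be too narrow. Named genes were the 5 members, at most the 6 highest of each list at 50 CPM or more with a few preset exceptions, and the 5 genes with the highest Spearman's rho to each member that was positive in both libraries. Calhm1, at 0.309 CPM in FP and 12.0 CPM in CV, was named outside this rule. The genes shown beside the ratio SDs and in the 4 barcodes with partners were chosen after their values were seen. Recovery of pooled fold differences and of genes that vary together over cells was tested on simulated counts. Subunit ratios, their SD ranks, shares and barcode classes were not simulated. Alternatives were other cell limits, totals, pseudocounts, thinning and single cells left out. Python 3.11.15, numpy 2.4.6, pandas 2.3.3, scipy 1.17.1 and matplotlib 3.10.9 were used.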

Additional observations from a re-analysis of the deposited data

How the results depend on the processing

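No paired analysis was possible because each papilla had 1 library. Of 172 recomputed values 116 stayed within the interval of the value reported (within 1.5 times for counts) and 56 moved. A change of sign was scored only for level differences past 2-fold, and none of the 5 members had one, so none could be scored. The smaller differences of all 5 members did change sign in some alternatives, with values given below. All 50 recomputed medians of subunit ratios stayed within their interval, but those intervals are wide: Gnb1 over Gnb3 in CV was −5.90 and −3.83 with at least 10 counts of each gene, Gnb1 over Gnat3 in CV −5.01 and −3.90, and Rgs21 over Gnat3 in FP −5.61 and −4.24. The intervals of the level differences are narrow because they cover counting error alone, so small shifts count as moved. The causes were not tested.

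With no Gnat3 limit the log2 difference, FP over CV, was −0.035 for Gnat3, −0.054 for Gnb3, −0.60 for Gng13, 0.11 for Gnb1 and −0.51 for Rgs21. Without the CV barcode of the highest total as well, a choice made after seeing the data, it was −0.20 for Gnat3, −0.13 for Gnb3, −0.56 for Gng13, −0.0062 for Gnb1 and −0.16 for Rgs21. Over all barcodes it was −0.016 for Gnat3, −0.040 for Gnb3, −0.58 for Gng13, 0.13 for Gnb1 and −0.50 for Rgs21. With the Gnat3 limit on the log10 scale (19 FP and 24 CV cells) it was 0.23 for Gnat3, 0.38 for Gnb3, −0.16 for Gng13 and 0.21 for Gnb1. As a mean of single-cell CPM it was 0.10 for Gnat3, 0.087 for Gnb3, 0.13 for Gng13, 0.11 for Gnb1 and 0.20 for Rgs21. Without the highest cell of each library it was 0.21 for Gnat3, 0.32 for Gnb3, 0.068 for Gnb1 and 0.20 for Rgs21. Leaving out the deepest 10% of kept cells of each library gave 0.056 for Gnat3, 0.059 for Gnb3, −0.19 for Gng13, 0.60 for Gnb1 and 0.20 for Rgs21. Thinned to 71770 counts it was 0.35 for Gnat3, 0.44 for Gnb3, −0.037 for Gng13, −0.33 for Gnb1 and 0.16 for Rgs21. Without the 5 shallower barcodes of the CV run, a choice made after seeing the data, it was 0.27 for Gnat3.

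Gng13 was found in 100% of kept FP cells at 1 count or more, at 3 counts or more, thinned, or with mitochondrial and ribosomal RNA limits read as fractions, and in 100% of kept CV cells at 1 count or more or thinned. At 1 count or more Gnb1 was found in 90.5% of FP and 75.0% of CV cells, and Rgs21 in 62.5% of CV cells. Thinned, Gnb1 was found in 73.1% of CV cells. Barcodes with partners but little Gnat3 numbered 10 when 1 partner sufficed and 8 when totals left out mitochondrial and ribosomal RNA. Of the 5 most like genes, the fraction limits kept 3 for Gnat3 and 3 for Gnb3, and the total of all counts kept 2 for Gnb3, 2 for Gng13 and 3 for Gnb1. The level of 50 CPM is few counts in the shallowest cells, and the part of depth in the shares of Gnb1 and Rgs21 was not tested.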
